A study of Homo sapiens with 6 samples.

Results

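The genes described here are 9 regulators and direct targets of p53, chosen by name: MDM2, MDM4, SESN1, SESN2, BTG2, ZMAT3, GDF15, RRM2B and PHLDA3. All 9 were found among the 19785 genes of the deposited table. They were measured by RNA sequencing in SET-2, an established leukemia line of megakaryoblastic character, in 2 groups of 3 libraries: SET-2 OTX P/R, a persister-resistant derivative of the line, and SET-2 Parental. The title of the series concerns resistance to BET inhibitors, drugs that displace BET bromodomain proteins from acetylated histones, and OTX is read here as such a drug. Both groups were untreated, exponentially growing cultures in RPMI1640 with 20% FBS, so neither line was exposed to drug at sampling. A single derivative is named, so resistance and any other difference between the lines cannot be told apart, and p-values measure the spread between these cultures.

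p53 is a transcription factor that is held low in unstressed cells, because MDM2 marks it for degradation and MDM4 covers its activation domain. Damage or nutrient stress releases it, and it then binds response elements in target genes that arrest the cell cycle, repair DNA, restrain growth or start cell death. MDM2 is itself a target, which closes a negative feedback loop. In blood cells this circuit limits the expansion of damaged progenitors.

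The response element is a pair of adjacent 10-base half-sites. RefSeq promoter windows of 300 bases (250 before and 50 after the annotated start, GRCh38.p14) were found for 7 of the 9 genes, and each was searched for the best 20-base match to the p53 consensus, which reads the same on both strands; no spacer between the half-sites was allowed. Below are the best matches of MDM2, SESN1 and GDF15, the closest to the consensus among these genes, and that of SESN2, the 1 tested gene of the 9 that passed the test between the lines. Capitals mark the 20 bases of the match, and all 4 are written 5′ to 3′ on the strand of the gene.
MDM2, internal promoter, chr12:68808918-68808947 (+): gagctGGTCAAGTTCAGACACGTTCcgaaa
SESN1, the most downstream of 3 starts, chr6:109009013-109009042 (-): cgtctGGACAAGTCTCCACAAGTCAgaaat
GDF15, just past the start, chr19:18386181-18386207 (+): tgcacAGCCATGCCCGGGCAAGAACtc
SESN2, chr1:28259284-28259313 (+): tgactAAACCGTCTTGCAAAAGTTTgcagc
The MDM2 match fits the consensus at 18 of 20 bases, as did 0.649% of 35116 windows of all genes or better. Those of SESN1 and GDF15 fit at 17 bases, which 5.20% of all windows reach. The best SESN2 match fits at 15 bases, reached by 70.5% of windows, as are the best matches of MDM4 and of the other starts of MDM2 and SESN1. BTG2 and 1 of 2 ZMAT3 starts reached 16 bases, as did 26.0% of windows, and the other ZMAT3 start reached 14. A weak match says only that these letters are not in this window. TGATGNAA, a form of the element bound by ATF4, a stress factor that also drives SESN2 and GDF15, was found on neither strand of any window of the 7 genes and in 3.62% of all windows.

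The table holds 1 quantile-normalized abundance per gene and library, a value that reflects the rank of the gene within its library. Genes with a mean of at least 1 over the 6 libraries were tested, and 7 of the 9 genes reached it. GDF15 and PHLDA3 did not. Library sums were 419375 to 419437, nearly equal by construction, and read depth is not known. The 11 megakaryoblast markers checked, GATA1, ITGA2B and GP9 among them, were all above 1 in at least some libraries, and their summed level was 826 to 840 in OTX P/R and 840 to 875 in parental libraries. Single markers differed by more than this sum: 5 rose, 3 fell and 3 did not pass. That is 72.7% called, against 36.1% of all genes tested. ITGB3, an integrin subunit of platelets, averaged 21.0 ± 1.04 in OTX P/R and 4.83 ± 0.585 in parental cells, and ITGA2B, its partner, 138 ± 3.73 in OTX P/R and 216 ± 11.5 in parental cells (SD, n = 3 each). Of markers of other blood cells, the summed level of 8 lymphoid genes was 10.8 to 11.5 in OTX P/R and 19.3 to 23.8 in parental libraries, with MS4A1 at 0 in all 6 and 4 of the 8 under 1 in all; the 3 that were tested fell. For 11 stromal, endothelial and epithelial genes it was 30.8 to 34.2 in OTX P/R and 17.0 to 19.8 in parental libraries, with 7 under 1 in all libraries, and the 2 that were tested, PECAM1 and KRT18, rose. For 5 monocyte and macrophage genes it was 80.9 to 102.7 in OTX P/R and 86.95 to 100.3 in parental libraries, with CD163 at 0 and 4 of the 5 under 1 in all. PECAM1 is not particular to stromal, endothelial or epithelial cells, so the sum of that list does not show such cells present. The part of these markers in the results below was not tested.

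SESN2 was the 1 of 7 tested genes that fell in OTX P/R cells; 0 rose by limma, also at an unadjusted p under 0.05, and 6 did not pass. That share, 14.3%, stands beside 36.1% of all 10741 genes tested (18.6% higher and 17.5% lower in OTX P/R). The median log2 fold change was -0.13 for the 7 genes and 0.016 for all genes tested. The 3 libraries of each group did not overlap for 3 of the 7 genes, SESN1, SESN2 and ZMAT3, all lower in OTX P/R; among all genes tested 51.6% were apart, 26.8% higher and 24.9% lower. Below the limit for testing, GDF15 and PHLDA3 were also lower in every OTX P/R library. The share of all genes below the limit that were apart was not computed. The other 4 genes overlapped between the lines.

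**Figure D1:**
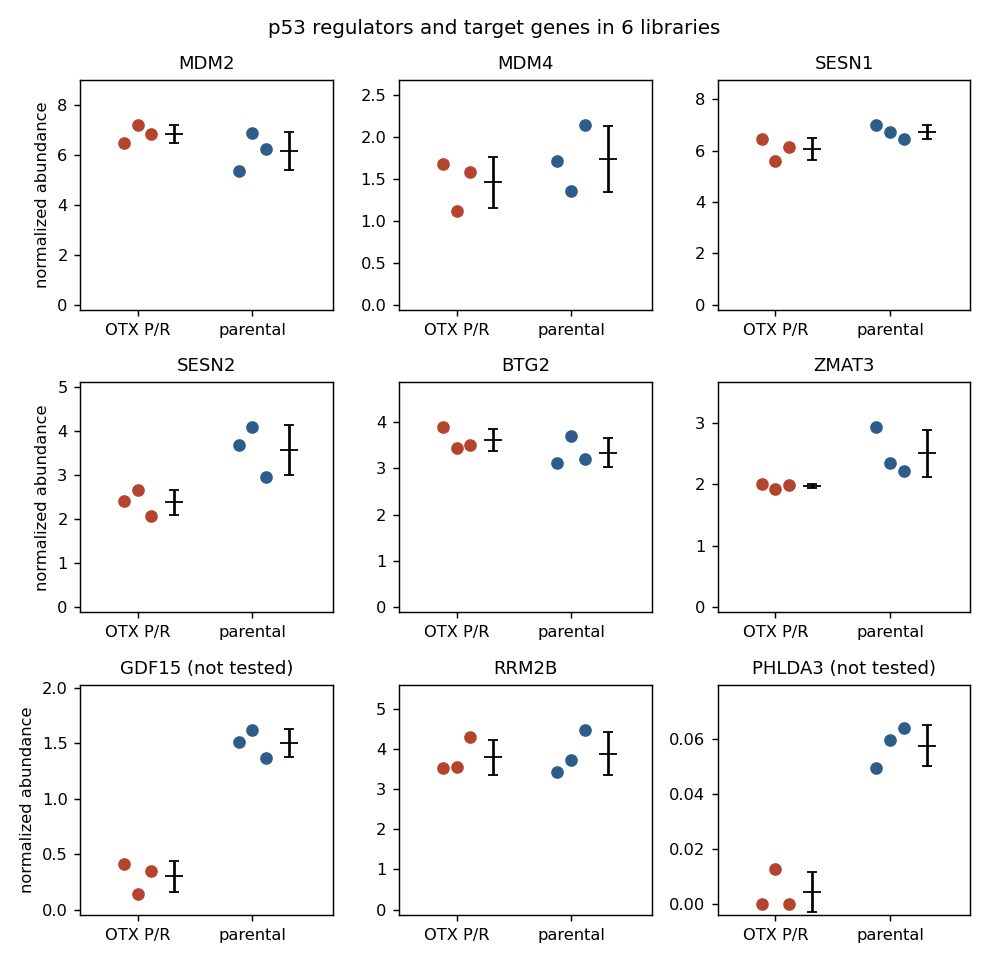
Normalized abundance (vertical axis, linear, a separate scale per gene) of the 9 genes in 3 OTX P/R (red) and 3 parental (blue) libraries; each point is a library and the black mark is the mean with SD. SESN1, SESN2, ZMAT3, GDF15 and PHLDA3 are lower in every OTX P/R library, and MDM2, MDM4, BTG2 and RRM2B overlap. Of the 10741 genes tested, which leave out GDF15 and PHLDA3, 24.9% were lower in every OTX P/R library.

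Neither of the regulators passed the test. MDM2, the ubiquitin ligase of p53 and its target, stood at 6.50, 7.22 and 6.85 in OTX P/R replicates 1 to 3, against 5.37, 6.88 and 6.23 in parental replicates 1 to 3. The groups overlapped, with parental replicate 1 the lowest of the 6. Its mean was 6.86 ± 0.359 in OTX P/R and 6.16 ± 0.757 in parental cells (SD, n = 3 each), and its log2 fold change on log2(value + 1) was 0.14 with a 95% interval of -0.09 to 0.36 (limma adjusted p = 0.298). MDM4, the relative of MDM2 that blocks p53 without degrading it, stood at 1.68, 1.11 and 1.58 in OTX P/R libraries, against 1.71, 1.36 and 2.15 in parental libraries. These ranges overlapped too, and the log2 fold change of -0.15 had an interval of -0.50 to 0.20 (limma adjusted p = 0.450).

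The sestrins are stress-induced proteins that lower mTORC1 activity; SESN2 also binds leucine and, when leucine is scarce, the GATOR2 complex. SESN2 stood at 2.42, 2.65 and 2.08 in OTX P/R libraries, against 3.69, 4.09 and 2.96 in parental libraries. Every OTX P/R library was below every parental one, and the nearest values, 2.65 and 2.96, were close. Mean SESN2 was 2.38 ± 0.288 in OTX P/R and 3.58 ± 0.572 in parental cells (SD, n = 3 each), which is 33.4% lower. Its log2 fold change was -0.43 ± 0.12 SE with an interval of -0.72 to -0.15 (limma adjusted p = 0.0323). Within the libraries it ranked 9008 to 9491 in OTX P/R and 8027 to 8785 in parental cells, of 19779 genes with complete values. The SESN2 call was lost when any of 4 libraries was left out, OTX P/R replicate 1 (limma adjusted p = 0.0782), OTX P/R replicate 3 (0.0924), parental replicate 1 (0.0862) or parental replicate 2 (0.0827), as well as with no minimum mean (0.0720). With each library left out in turn its log2 fold change lay between -0.53 and -0.35.

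SESN1, a p53 target of the same family, was lower by less. It stood at 6.45, 5.59 and 6.13 in OTX P/R libraries, against 7.01, 6.75 and 6.46 in parental libraries. The groups did not overlap, though OTX P/R replicate 1 and parental replicate 3 were nearly equal, and the log2 fold change of -0.13 did not pass (interval -0.30 to 0.03, limma adjusted p = 0.181). SESN3, the third sestrin, which FOXO factors and not p53 are best known to control, rose. It stood at 3.88, 4.03 and 4.18 in OTX P/R libraries, against 2.44, 2.55 and 2.74 in parental libraries (log2 fold change 0.49 ± 0.06 SE, limma adjusted p = 0.00203). SESN2 and SESN3 thus passed in opposite directions.

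GDF15, a secreted stress cytokine of the TGF-beta family that p53 and the ATF4 and CHOP factors induce, had the largest log2 fold change of the 9. It stood at 0.411, 0.142 and 0.349 in OTX P/R libraries, against 1.51, 1.63 and 1.37 in parental libraries. All OTX P/R values lay below all parental values, by more than the range within either line. For their low level the OTX P/R values were spread widely, from 0.142 to 0.411. Mean GDF15 was 0.301 ± 0.141 in OTX P/R and 1.50 ± 0.128 in parental cells (SD, n = 3 each), a ratio of means of 0.200, and its rank was 11541 to 12458 in OTX P/R and 9893 to 10172 in parental cells. Its mean over the 6 libraries was under the limit of 1, so it has no test in the fit of 10741 genes. When all 19779 genes with complete values were tested, it passed with a log2 fold change of -0.95 ± 0.09 SE (limma adjusted p = 0.00307); in that fit 23.5% of genes were called, 12.3% higher and 11.2% lower. With no filter, its adjusted p was 0.00498 to 0.0162 over the libraries left out in turn, and on log2(value + 0.1) its log2 fold change was -2.07; the pseudocount of 1 is above all 3 OTX P/R values and below all 3 parental values.

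PHLDA3, a pleckstrin homology protein that competes with AKT for membrane lipid, was at the floor of the table. It was listed at 0 in OTX P/R replicates 1 and 3 and at 0.0127 in replicate 2, against 0.0491, 0.0596 and 0.0636 in parental libraries. Parental values were higher in every library, and all were under 0.1. Tested without a filter it passed with a log2 fold change of -0.07 (limma adjusted p = 0.00354), a size that the pseudocount largely sets; on log2(value + 0.1) it was -0.60.

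**Figure D2:**
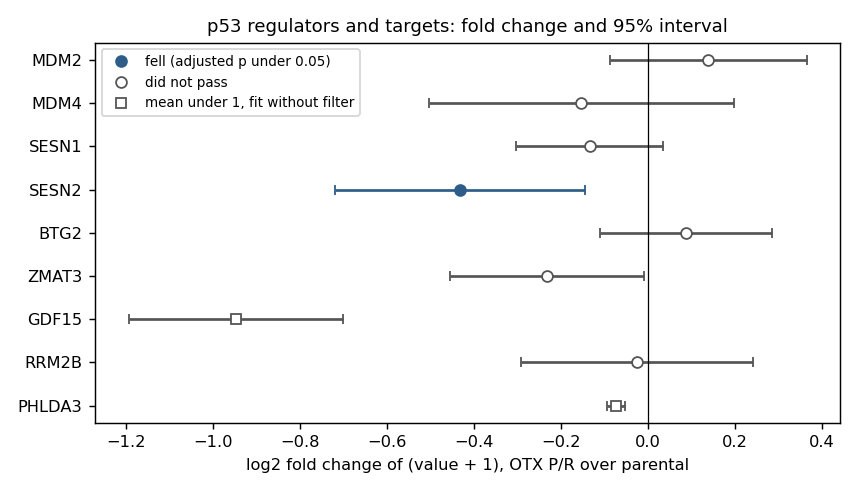
Log2 fold change of (value + 1), OTX P/R over parental (horizontal axis), with 95% intervals for the 9 genes; filled blue marks a gene that fell, open circles genes that did not pass, and open squares the 2 genes with a mean under 1, taken from the fit without a filter. SESN2 at -0.43 and GDF15 at -0.95 lie farthest from 0.

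The remaining targets act on the cell cycle, RNA and nucleotides. BTG2, an antiproliferative protein that recruits the CCR4-NOT deadenylase, stood at 3.89, 3.44 and 3.50 in OTX P/R libraries, against 3.11, 3.71 and 3.20 in parental libraries. The lines overlapped (log2 fold change 0.09, interval -0.11 to 0.29, limma adjusted p = 0.444). ZMAT3, a zinc finger protein that binds RNA and influences splicing, stood at 2.00, 1.93 and 1.98 in OTX P/R libraries, against 2.93, 2.35 and 2.22 in parental libraries. The OTX P/R values were nearly equal and below every parental value; the log2 fold change of -0.23 had an unadjusted interval below 0 (-0.45 to -0.0087) and did not pass after adjustment (limma adjusted p = 0.0972). RRM2B, the p53-inducible small subunit of ribonucleotide reductase, stood at 3.53, 3.56 and 4.30 in OTX P/R libraries, against 3.44, 3.74 and 4.49 in parental libraries. Its values overlapped fully, with replicate 3 the highest in each line, and its log2 fold change was -0.03 with an interval of -0.29 to 0.24 (limma adjusted p = 0.875).

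The wider set of p53 targets was split evenly. Of 55 other target genes 44 were tested, of which 9 rose, 9 fell and 26 did not pass; the 40.9% called stands beside 36.1% of all genes tested, and the median log2 fold change was 0.0034. GADD45A, a growth arrest and DNA damage protein, rose to 21.1, 19.9 and 21.5 in OTX P/R libraries, against 11.5, 11.8 and 11.6 in parental libraries (log2 fold change 0.79 ± 0.05 SE, limma adjusted p = 1.27e-04). The zinc finger gene ZNF79 and PANK1, an enzyme of coenzyme A synthesis, rose by 0.62 and 0.51 on the log2 scale. CCNG1, or cyclin G1, fell to 25.8, 22.0 and 20.7 in OTX P/R libraries, against 42.0, 57.2 and 56.4 in parental libraries (log2 fold change -1.14 ± 0.14 SE, limma adjusted p = 0.00173). TNFRSF10B, a receptor for the death ligand TRAIL, fell by 1.03 on the log2 scale, and NINJ1, which ruptures the plasma membrane in lytic cell death, fell by 0.86. These 6 genes were named for the size of their called changes, so the lack of overlap between their groups adds nothing to the calls. Among all genes tested 51.6% were apart. The 6 named genes kept their calls with each of the 6 libraries left out in turn. Of the other calls, TRIAP1 and IER5, which rose, were kept in 0 and 1 of these 6 fits. NADSYN1 and TNFRSF10A, which fell, were each kept in 2, and SUSD6, which rose, in 5.

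Of the same list, 4 genes of cell death are given by value, with no test of such genes as a group. BAX, which permeabilizes mitochondria, averaged 72.3 ± 7.61 in OTX P/R and 68.1 ± 17.7 in parental cells (SD, n = 3 each; limma adjusted p = 0.700). BBC3, or PUMA, averaged 4.65 ± 0.565 in OTX P/R and 3.90 ± 0.469 in parental cells (limma adjusted p = 0.184). PMAIP1, or NOXA, chosen after its values were seen, fell by 0.47 on the log2 scale (limma adjusted p = 0.0139). The death receptor FAS did not pass, at 2.06 ± 0.270 in OTX P/R and 2.23 ± 0.476 in parental cells (limma adjusted p = 0.714).

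**Figure D3:**
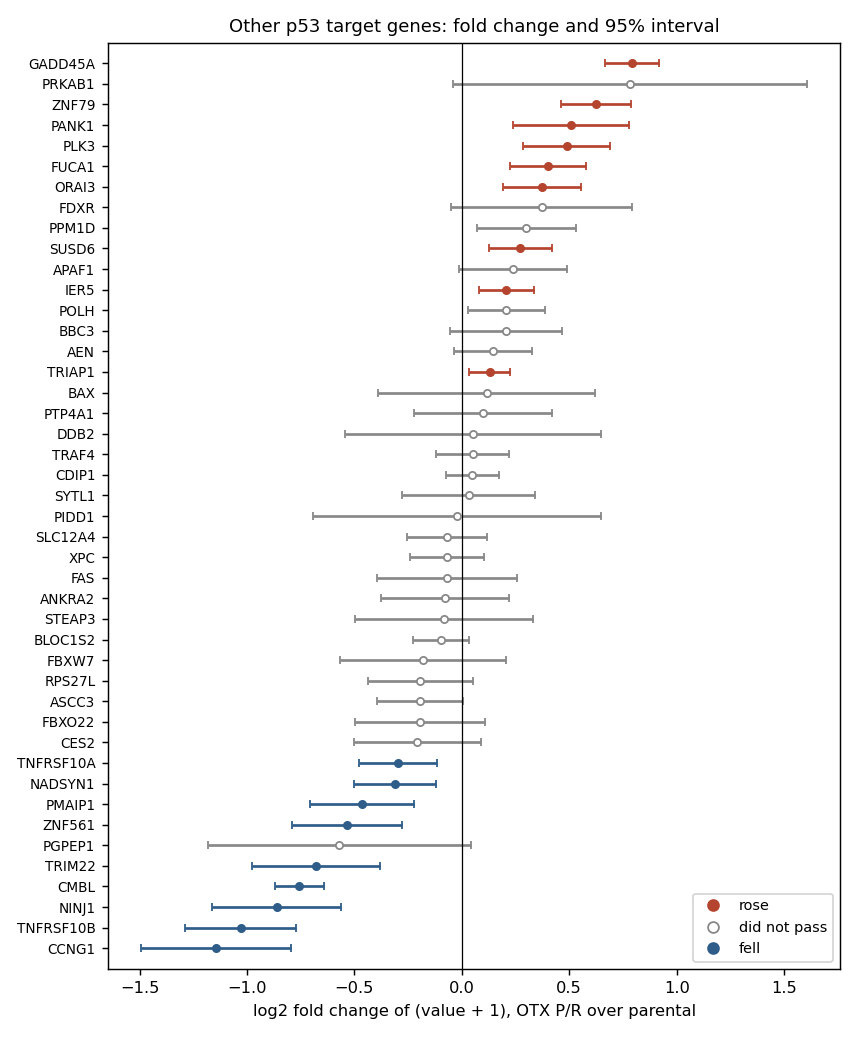
Log2 fold change of (value + 1), OTX P/R over parental (horizontal axis), with 95% intervals for the 44 tested genes among the other p53 targets, ordered by size; filled red points rose, filled blue points fell and open points did not pass. The 9 genes that rose reach 0.79 for GADD45A, and the 9 that fell reach -1.14 for CCNG1.

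Genes that act on the p53 protein itself were called in both directions. Of 20 tested regulators and cofactors 3 rose, 2 fell and 15 did not pass (25.0% called, against 36.1% of all genes tested; median log2 fold change -0.03). HIPK2, a kinase that phosphorylates p53, stood at 6.85, 6.30 and 8.98 in OTX P/R libraries, against 2.91, 1.99 and 2.18 in parental libraries (log2 fold change 1.32 ± 0.16 SE, limma adjusted p = 0.00134). TRIM24, a ubiquitin ligase for p53, and DAXX, which binds MDM2, rose with log2 fold changes of 1.29 and 0.39. RPL23, a ribosomal protein that can bind MDM2, and RFWD2, the ubiquitin ligase also known as COP1, fell with log2 fold changes of -1.14 and -0.22. The RFWD2 call was lost without OTX P/R replicate 1 or 3 or parental replicate 1 or 3 (adjusted p 0.115 to 0.130), and the DAXX call without any OTX P/R library or parental replicate 3 (0.0681 to 0.132).

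Genes around the sestrins were also called in both directions. Of 29 tested genes of the sestrin, GATOR and mTORC1 pathway 5 rose, 2 fell and 22 did not pass (24.1% called, against 36.1% of all genes tested; median log2 fold change 0.03). Besides SESN3, RHEB, the GTPase that activates mTORC1, and WDR24, a subunit of GATOR2, rose with log2 fold changes of 0.75 and 0.30. LAMTOR5, part of the Ragulator scaffold, and the Rag GTPase RRAGA fell with log2 fold changes of -0.44 and -0.21. The RHEB call was lost without OTX P/R replicate 1 or 2 or parental replicate 3 (adjusted p 0.0549 to 0.0572), and the RRAGA call without OTX P/R replicate 1 or 3 or parental replicate 2 or 3 (0.0704 to 0.0892).

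SESN2 and GDF15 are also known targets of ATF4 and CHOP. The list of other ATF4 and CHOP targets used here, which also holds ATF4 and the CHOP gene, had 18 tested genes. Of these 4 rose, 3 fell and 11 did not pass, with a median log2 fold change of -0.09. The 38.9% called was close to the 36.1% of all genes tested. DDIT3, which encodes CHOP, fell to 8.16, 7.59 and 7.54 in OTX P/R libraries, against 11.1, 11.9 and 11.4 in parental libraries (log2 fold change -0.51 ± 0.06 SE, limma adjusted p = 0.00110). TRIB3, a pseudokinase induced by CHOP, and SLC7A11, the cystine transporter, each fell by 0.29. The TRIB3 call was lost without OTX P/R replicate 2 or 3 or parental replicate 1 or 2 (adjusted p 0.0776 to 0.0924), and the SLC7A11 call without any library but parental replicate 2 (0.0635 to 0.103). ASNS, asparagine synthetase, had a log2 fold change of 0.47, the amino acid transporter SLC7A5 of 0.42, and PPP1R15A, which reverses the phosphorylation of eIF2, of 0.34; all 3 rose. ATF4 itself averaged 185 ± 22.9 in OTX P/R and 153 ± 4.59 in parental cells and did not pass (limma adjusted p = 0.0703).

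In the list of deoxynucleotide supply, in which RRM2B acts, more genes rose than fell. The list mixes enzymes that make deoxynucleotides with others that break them down, NT5M and SAMHD1 among them. Its counts therefore give no direction of supply. Of 15 tested, 5 rose, 0 fell and 10 did not pass, with a median log2 fold change of 0.20. The 33.3% called, all higher, stands beside 36.1% of all genes tested (18.6% higher and 17.5% lower). By limma, 0 genes of the list were lower at an unadjusted p under 0.05. Of the 15, 7 were higher in every OTX P/R library and 1, SAMHD1, was lower in every one and did not pass. Among all genes tested these shares were 26.8% and 24.9%. The mitochondrial nucleotidase NT5M had a log2 fold change of 1.81, thymidylate synthase TYMS of 0.45 and the dUTPase DUT of 0.35. The other subunits of ribonucleotide reductase did not pass: RRM1 averaged 55.5 ± 8.74 in OTX P/R and 54.1 ± 7.25 in parental cells, and RRM2, the small subunit of dividing cells, averaged 57.1 ± 4.86 in OTX P/R and 47.4 ± 4.74 in parental cells (limma adjusted p = 0.879 and 0.0790).

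Of the BTG and TOB family with CCR4-NOT, 15 genes were tested, of which 2 rose, 2 fell and 11 did not pass (26.7% called, against 36.1% of all genes tested; median -0.05). The deadenylases CNOT6 and CNOT8 fell by 0.78 and 0.45 on the log2 scale, while TOB2, an adaptor like BTG2, and the ubiquitin ligase CNOT4 rose by log2 fold changes of 0.26 and 0.40. The TOB2 call was lost without replicate 2 or 3 of either line (adjusted p 0.0541 to 0.0661). In the list of PHLDA and AKT genes 1 of 7 tested fell and 6 did not pass (14.3% called, against 36.1% of all genes tested; median -0.24). The 1 that fell was PHLDA2, an imprinted relative of PHLDA3, at 1.60, 1.28 and 1.84 in OTX P/R libraries, against 5.64, 7.10 and 6.19 in parental libraries (log2 fold change -1.51 ± 0.12 SE, limma adjusted p = 2.39e-04). Of 2 tested relatives of ZMAT3, ZMAT2, a splicing protein, fell by 0.82 on the log2 scale and 1 did not pass (median -0.41). That is 50% of only 2 genes, against 36.1% of all genes tested.

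**Figure D4:**
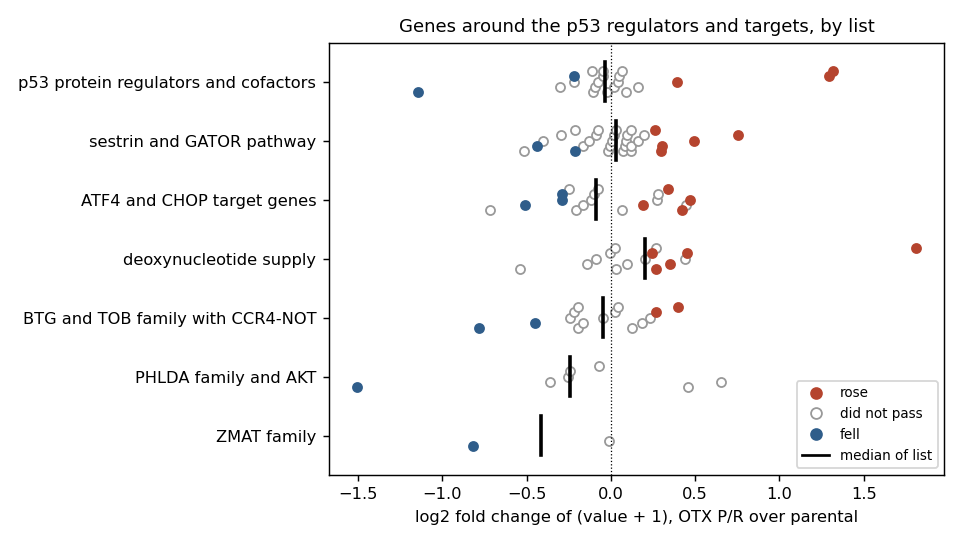
Log2 fold change of (value + 1), OTX P/R over parental (horizontal axis), of the tested genes in 7 lists around the 9 genes (rows); each point is a gene, red rose, blue fell, open did not pass, and the black bar is the median of the list. The medians lie between -0.41 for the ZMAT family, with 2 genes, and 0.20 for deoxynucleotide supply.

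The chromosomal surroundings of these genes are described without a test. Neighbours were the 10 tested genes on each side in the order of GENCODE release 29, fewer near a chromosome end. Among all genes tested 18.6% rose and 17.5% fell, and the counts below were not tested against these shares. Around SESN2, on chromosome 1, 2 of 20 neighbours rose and 3 fell, and their median was 0.10, on the other side of 0 from SESN2. GDF15, on chromosome 19, had 1 neighbour that rose and 5 that fell, with a median of -0.05. Around ZMAT3, on chromosome 3, 2 rose and 7 fell, and the median of -0.21 was close to the -0.23 of ZMAT3 itself. MDM4 and BTG2 lie 9 tested genes apart on chromosome 1 and share surroundings with a median of 0.10 each. The neighbours of MDM2, SESN1, RRM2B and PHLDA3 had medians from -0.10 to 0.08.

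**Figure D5:**
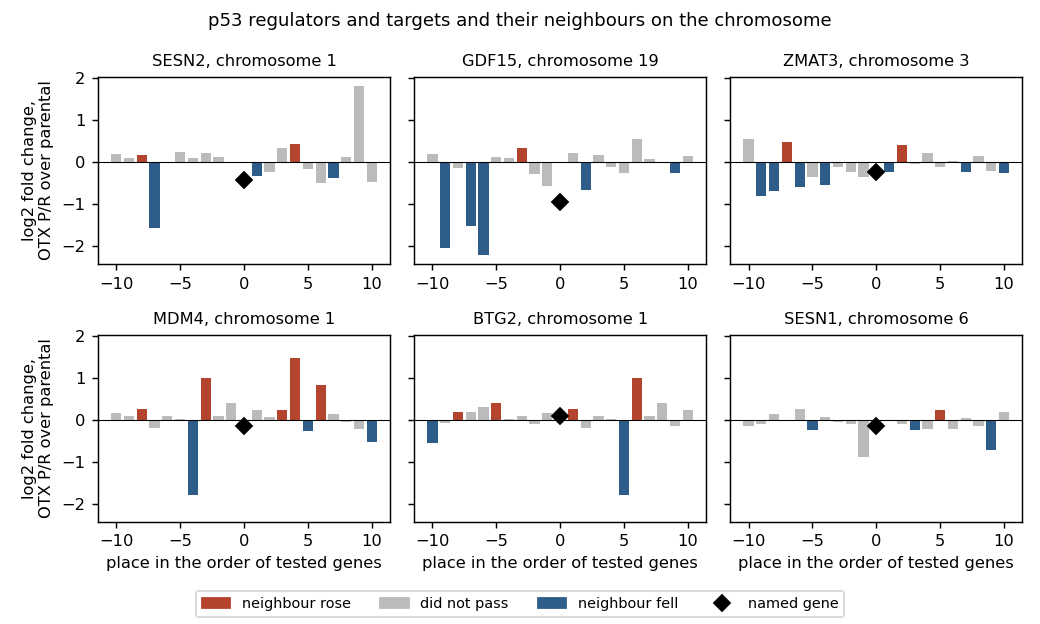
Log2 fold change, OTX P/R over parental (vertical axis), of the 10 tested genes on each side (horizontal axis, place in gene order) of 6 of the genes; bars are neighbours, red rose, blue fell, grey did not pass, and the black diamond is the named gene. SESN2 lies at -0.43 among neighbours with a median of 0.10, and ZMAT3 at -0.23 among neighbours with a median of -0.21.

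Several of the pathway genes that passed lie among neighbours that shifted the same way. For CCNG1, on chromosome 5, 15 of 20 neighbours fell, with a median of -0.72, and for RPL23, on chromosome 17, 19 of 20 fell, with a median of -0.74. HIPK2 and TRIM24, both on chromosome 7, each had 15 of 20 neighbours that rose, with medians of 0.69 and 0.68. RHEB, CNOT4 and ASNS, also on chromosome 7, had neighbour medians of 0.79, 0.71 and 0.49, and CNOT6 and CNOT8, on chromosome 5, of -0.68 and -0.82. NT5M, on chromosome 17, had 10 of 20 neighbours that rose, with a median of 0.25. Around ZMAT2, on chromosome 5, 11 of 20 neighbours fell and 8 rose, with a median of -0.31. Around LAMTOR5, on chromosome 1, 9 of 20 fell and 3 rose, with a median of -0.26. The neighbour medians of GADD45A, NINJ1, TNFRSF10B, PHLDA2, SESN3 and DDIT3 were 0.0079, 0.0019, -0.02, -0.02, -0.0034 and -0.06. In that order, 4, 4, 4, 1, 3 and 2 of 20 neighbours rose and 2, 3, 7, 2, 3 and 4 fell. Among all genes tested 18.6% rose and 17.5% fell. The part of these surroundings in the change of each gene was not tested.

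The gene whose profile over the 6 libraries lay closest to that of SESN2 was ZSCAN2, a zinc finger gene on chromosome 15. After each gene was centred on its own mean, their log2 values differed by 0.045 (root mean square over 6 libraries). The next closest, DALRD3 and OCEL1, differed from SESN2 by 0.053 and 0.054. Some gene is always closest, and a link between ZSCAN2 and SESN2 was not tested. ZSCAN2 averaged 2.60 in OTX P/R and 3.66 in parental cells. Since these are bulk cultures, fewer cells that express a gene and less of its RNA per cell cannot be told apart for any of these results.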

How the data were processed

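Total RNA of the 6 cultures was sequenced. The submitters' processing notes list Trim Galore, HISAT2, StringTie and the build hg19, without versions. What the authors deposited is a linear signal per gene, an abundance from StringTie, and no source says whether it is FPKM or TPM. After sorting, values of at least 1 varied between libraries by no more than 0.243%, so the table is quantile-normalized; depth is not kept, and no counting intervals are given. Of 19785 genes 6 had a missing value and were left out. Columns were matched to samples by description and groups taken from titles.

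On the scale log2(value + 1), limma 3.58.1 in R 4.3.3 was fitted to the 10741 genes whose mean reached 1, the variance prior depending on mean level. Tests were two-sided, p-values were adjusted across all these genes by Benjamini-Hochberg, and calls were made under 0.05. Such fold changes understate the change of low genes. Exact permutation of 3 against 3 cannot go below 0.1. The 9 genes and the gene lists were chosen with earlier results of these data known, and no list was tested as a set. Where a symbol was repeated, its row with the higher mean was used. Genes named in a list are up to 3 called per direction by size, others where stated or where they did not pass; for each called gene of the 9, the gene of closest profile is named. Some genes of the pathway are not reported here. Chromosomes and gene order came from GENCODE 29 (GRCh38), matched by identifier, and sequences from RefSeq (GRCh38.p14), neither of which is the authors' build. Same-numbered libraries did not deviate together (correlations of deviations from the group means of -0.0647, -0.0277 and -2.94e-04), so replicate numbers were treated only as names. The alternatives were pseudocounts of 0.1 and 5, no filter or a minimum mean of 5, other variance priors, median centring, a replicate block, summed repeated symbols and each library left out. The fit was tested on simulated data. Python 3.11.15, pandas 2.3.3, NumPy 2.4.6 and Matplotlib 3.10.9 were used.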

Additional observations from a re-analysis of the deposited data

How the results depend on the processing

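MDM2, MDM4, SESN1, BTG2 and ZMAT3 kept their direction and did not pass under any alternative run. RRM2B, near 0, changed sign when a library was left out (log2 fold change -0.10 to 0.061). SESN2 was lower in OTX P/R in every alternative that tested it, with log2 fold changes from -0.56 to -0.22, and passed in 9 of 14; it did not without a filter (log2 fold change -0.43, adjusted p = 0.0720), and over the libraries left out its log2 fold change was -0.53 to -0.35 (adjusted p 0.0190 to 0.0924). Because of this, the count of the 9 genes that fell was 0 to 1 over the libraries left out, 0 with a minimum mean of 5, where SESN2 was not tested, and 2 (GDF15 and PHLDA3) without a filter. With no filter and a pseudocount of 0.1, chosen after the data were seen, GDF15 and PHLDA3 had log2 fold changes of -2.07 and -0.60 (adjusted p = 0.0126 and 0.00429). Both stayed under 0.05 with no filter and each library left out or a replicate block.

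The replicate block gave SESN2 an adjusted p = 0.0211, changed no call among the 7 tested genes, and lowered counts in 5 lists: 6 other p53 targets rose, 2 regulators or cofactors rose and 1 fell, 3 sestrin pathway genes rose, 1 ATF4 and CHOP target fell and 1 BTG and TOB family gene rose. No library correlated best with its own number. Counts that moved by over 1.5 times under other settings were those of regulators and cofactors that fell (1 without a filter or without a trend in the prior, 1 to 2 over the libraries left out), sestrin pathway genes that rose (2 to 5 over the libraries left out, lowest without parental replicate 3) or fell (1 to 4, highest without parental replicate 1), ATF4 and CHOP targets that fell (1 to 2), BTG and TOB family genes that rose (1 with a minimum mean of 5, 1 to 2 over the libraries left out), and PHLDA and AKT genes that rose (1 without a filter, 0 to 1 over the libraries left out) or fell (3 without a filter, 0 with a minimum mean of 5, 2 without a trend, 1 to 2 over the libraries left out). Smaller shifts included other p53 targets that rose (6 with a minimum mean of 5, 11 without a filter, 6 to 9 over the libraries left out) or fell (6 with a minimum mean of 5, 7 to 9), regulators that rose (2 to 3 over the libraries left out) and ATF4 and CHOP targets that rose (3 to 5). Stricter and looser filters change which genes are tested; for the rest the cause was not tested. Depth is unknown, so what it limits cannot be stated.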
